A study of Homo sapiens with 12 samples.

Results

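The replication-independent histone genes encode the histone proteins that are made outside DNA replication and placed into chromatin throughout the cell cycle. The members described here were chosen by name: H3F3A and H3F3B (histone H3.3), H2AFZ and H2AFV (H2A.Z), H2AFX (H2A.X), H2AFY (macroH2A), H2AFJ (H2A.J), and H1FX (linker histone H1.10). These 8 genes were found by exact name among 23621 genes in the expression tables of both cell lines. Levels are in FPKM, which counts sequenced fragments relative to transcript length and library size. A gene counted as active if any 1 of the 12 libraries exceeded an FPKM of 1, as 14251 genes did, all 8 members among them.

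RNA was sequenced from KURAMOCHI (Ku) and COV362 (Cov), a pair of human ovarian cancer cell lines, after 6 hr with the vehicle DMSO or with the drug THZ1 at 50 nM or 250 nM. THZ1 binds covalently to CDK7, CDK12 and CDK13, kinases that phosphorylate RNA polymerase II. The 6 groups (Ku DMSO, Ku 50 nM, Ku 250 nM, Cov DMSO, Cov 50 nM and Cov 250 nM) held 2 biological replicates each, named replicate 1 and replicate 2 below. The authors took RNA by cell number, added synthetic spike-in RNAs, and scaled FPKM to the spike-ins, so that a level is meant to stand for RNA per cell. Only FPKM were used and the read depth of the libraries is unknown. The lines were normalized in separate tables, so values are compared within a line and no difference between the lines was tested. In bulk RNA, fewer cells of a type and less RNA per cell cannot be told apart.

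Epithelial markers were present in the DMSO libraries of both lines. KRT8 averaged 2432 FPKM in Ku and 1133 FPKM in Cov, KRT18 averaged 2135 and 792, KRT19 47.6 and 221, PAX8 136 and 124, and EPCAM 4.13 and 162. WT1 averaged 56.8 FPKM in Ku and 0.653 in Cov, while MUC16 averaged 0.166 in Ku and 5.71 in Cov, where the Ku value lay near the shared low value described below. Of the markers of other cell types, COL1A1 averaged 2.53 and 3.17 FPKM, PTPRC 0.235 and 0.13, PECAM1 0.156 and 0.338, and DCN 0.121 and 0.106.

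Core histones H2A, H2B, H3 and H4 wrap DNA into nucleosomes, and linker histone H1 binds the DNA between them. Most histone protein comes from clustered genes without introns that are transcribed in S phase, and their mRNAs end in a stem-loop instead of a poly(A) tail. The replication-independent genes lie outside those clusters, mostly give polyadenylated mRNA in all phases, and encode variants with roles of their own at active genes, at silent chromatin and at DNA breaks.

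Log2 fold changes below are differences in mean log2(FPKM + 1) between groups of a line, tested with limma over all active genes. A gene was called lower or higher at a Benjamini-Hochberg adjusted p under 0.001 together with a log2 fold change beyond 0.5. A gene that was not called may still have changed. Counts at an unadjusted p under 0.05 have no share of active genes beside them, as that share was not counted. Such counts do not set the counted genes apart from others. The limma p-values set a group difference against each gene's spread between replicates, which is drawn toward that of genes of similar level. They rest on that model, as an exact two-sided permutation test of 2 libraries against 2 cannot give a p below 0.33. Both doses were compared with the same DMSO libraries. Where groups are said not to overlap or to stand in order of dose, the share of active genes doing so was not counted. The tables hold no zeros. Instead a low value between 0.0783 and 0.119 FPKM, depending on the library, was shared by 5278 genes in Ku and 4901 in Cov. A member with any library within 1.5 times that value is given by its levels alone, which left 6 members with a test in Ku and 7 in Cov.

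At 250 nM in Ku, 6 of 6 tested members were called lower than DMSO, beside 68.6% of all active genes, although scaling each library to the same median FPKM left 0 of them lower and 2 higher (H2AFV and H2AFY), beside 11.6% of active genes lower and 26.9% higher, and median-of-ratios scaling left 1 lower (H2AFX) and the same 2 higher, beside 19% and 11.1%. In Cov at 250 nM, 6 of 7 were called lower beside 84% of active genes, a count that became 0 lower and 5 higher (H2AFZ, H2AFV, H2AFY, H2AFJ and H1FX) at an equal median, beside 11.3% of active genes lower and 26.4% higher, and 0 lower and 2 higher (H2AFV and H2AFY) under median-of-ratios scaling, beside 18.9% and 8.57%. The median log2 fold change of the tested members was -1.25 in Ku and -0.97 in Cov, against -1.11 and -1.31 over all active genes. On an equal-median scale the median over all active genes stood at 0.29 in Ku and 0.31 in Cov, and under median-of-ratios scaling at 0.00 and 0.01. The direction of the family thus rests on the spike-in scale. Each tested member is also placed below by its percentile among active genes at 250 nM, where a low percentile stands for a more negative log2 fold change. That percentile was taken on the spike-in scale as well and moves with the scaling. In Ku at 250 nM, H2AFZ and H3F3B lay below the median of active genes on the spike-in scale and above it under both other scalings.

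At 50 nM, 2 of 6 members were called lower in Ku beside 11.3% of active genes, and 3 of 7 in Cov beside 70.5%, on the spike-in scale, whereas at an equal median and under median-of-ratios scaling 0 were lower in either line, beside 0.737% and 2.72% of active genes in Ku and 0.147% and 0.772% in Cov. Some of these calls, and both of those in Ku, were lost when 1 library was left out, as given below for each member. Every run with a library left out, here and below, has fewer libraries to estimate the spread of each gene. The share of active genes called in such runs was not counted. The median over tested members at 50 nM was -0.45 in Ku and -0.63 in Cov, against -0.40 and -0.85 over all active genes. By limma, 0 members were called higher in either comparison with DMSO in Ku, beside 0.0842% of active genes at 50 nM and 0.0491% at 250 nM, or in Cov, beside 0.0772% and 0.105%. In all of these, 0 members had a positive log2 fold change at an unadjusted p under 0.05.

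The step from 50 nM to 250 nM was also tested, with libraries shared with the comparisons above. In Ku, 5 of 6 members were called lower at 250 nM than at 50 nM, beside 36% of active genes, on the spike-in scale only, since both other scalings left 0, beside 6.55% of active genes at an equal median and 11.1% under median-of-ratios scaling. Leaving out either 50 nM or either 250 nM library of Ku brought that count to 1. In Cov, 5 of the 7 members were lower at an unadjusted p under 0.05. At the limits for a call, limma gave 0 of 7 lower, beside 24.4% of active genes. That 0 became 1 without Cov DMSO replicate 1, without Cov DMSO replicate 2 or without Cov 250 nM replicate 2. Called higher at this step by limma were 0 members in either line on the spike-in scale, also at an unadjusted p under 0.05, beside 0.0421% of active genes in Ku and 0.0842% in Cov. At an equal median H2AFY was called higher at this step in Cov, beside 3.16% of active genes. The median over tested members for this step was -0.69 in Ku and -0.45 in Cov, against -0.62 and -0.41 over all active genes.

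**Figure D1:**
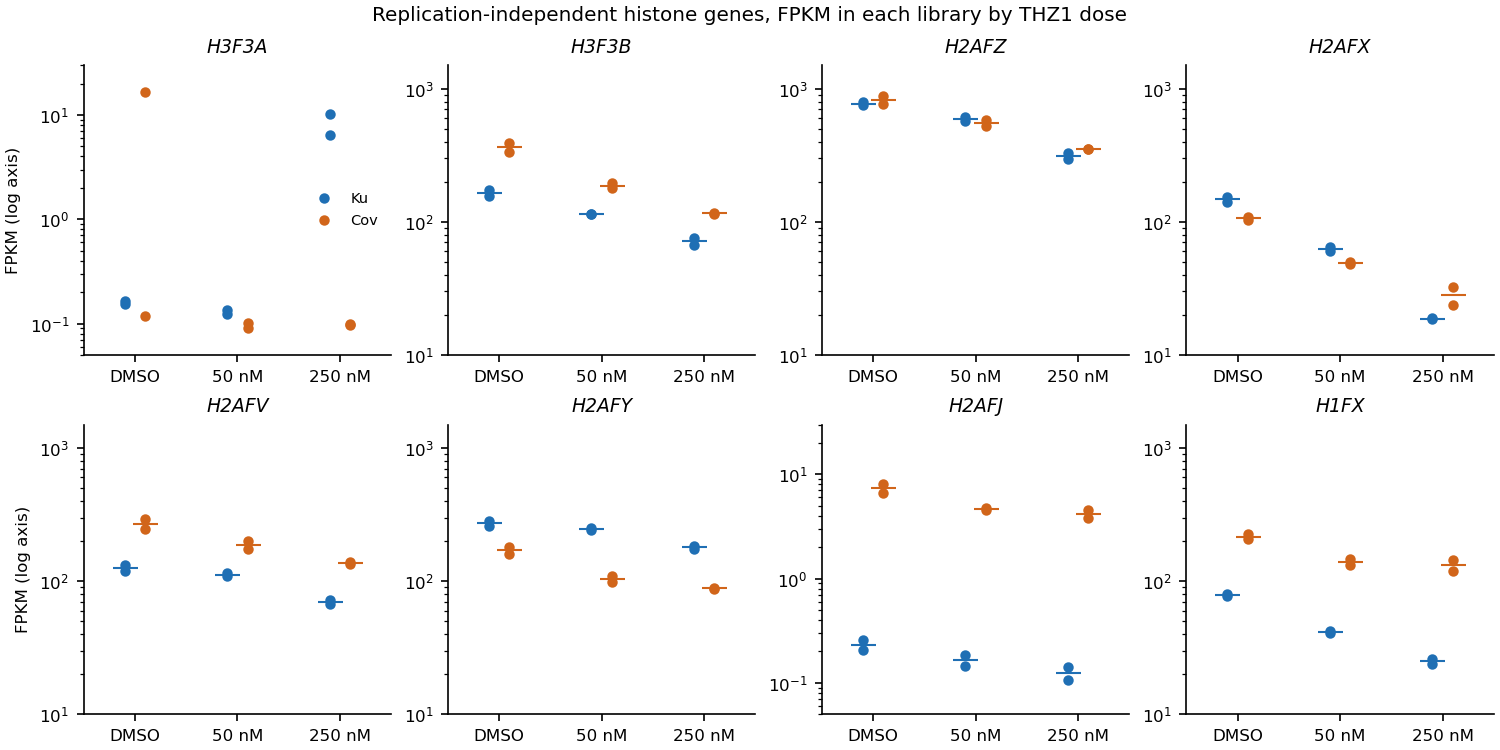
FPKM on a log axis of each of the 8 members (panels) in each library (points) at DMSO, 50 nM and 250 nM THZ1 in Ku and Cov, with a dash at the group mean except for H3F3A. On the spike-in scale, which other scalings overturn for 4 or more of the tested members in each line, H2AFZ ran from 797 to 297 FPKM in Ku, while H3F3A lay at 6.47 and 10.3 FPKM at 250 nM in Ku and near the shared low value at 250 nM in Cov.

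H3.3 differs from the replication-coupled H3 proteins by a few residues and is deposited at active genes, enhancers and telomeres. It is encoded by a pair of genes, H3F3A (chr1:226249552-226259720, plus strand, build GRCh37, 4 exons) and H3F3B (chr17:73772515-73781974, minus strand, 4 exons). The tables also list H3F3AP4 (chr2:175584636-175585046, plus strand), a processed pseudogene of H3F3A, and H3F3C (chr12:31944119-31945232, minus strand), a primate gene close in sequence to H3F3B. The first 75 coding bases of the 4 genes, read from GRCh37, are shown because reads from identical stretches cannot be told apart by sequence. Capitals mark bases that differ from H3F3A.
H3F3A: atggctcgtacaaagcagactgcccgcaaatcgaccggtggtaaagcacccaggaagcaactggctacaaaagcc
H3F3AP4: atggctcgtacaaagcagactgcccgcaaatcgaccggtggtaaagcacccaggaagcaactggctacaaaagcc
H3F3C: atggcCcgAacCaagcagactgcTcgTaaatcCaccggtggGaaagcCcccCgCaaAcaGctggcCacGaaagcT
H3F3B: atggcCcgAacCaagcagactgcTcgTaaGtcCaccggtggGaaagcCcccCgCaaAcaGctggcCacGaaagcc
In this stretch H3F3AP4 differed from H3F3A at 0 bases, and H3F3B and H3F3C each differed at 15. Over the whole coding sequence of 411 bases, H3F3A and H3F3AP4 were identical, and H3F3A and H3F3B differed at 88 bases (78.6% identical, with 14 bases as the longest identical run).

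Reads were 75 bases long. Of the 996 windows of 75 bases in the main H3F3A transcript, 909 (91.3%) occurred unchanged elsewhere in GRCh37, at 9 other loci, and all 909 occurred within 1000 bases of H3F3AP4, 337 of them (33.8%) inside the 411 bases given above. For H3F3B, 134 of 2631 windows (5.09%) occurred elsewhere, all within 1000 bases of H3F3C. Of the H3F3AP4 windows, 323 of 337 (95.8%) occurred elsewhere and 337 (100%) lay in the spliced H3F3A transcript, 200 of them (59.3%) also unbroken by an intron in the H3F3A gene. How the authors assigned reads that match several places, and which annotation they used, is not given in the sources used here, so the split between H3F3A and H3F3AP4 is uncertain. The same holds for other genes that share reads with near-identical copies.

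H3F3A was close to the shared low value in most libraries. In Ku it lay at 0.164 and 0.155 FPKM in DMSO, 0.134 and 0.123 at 50 nM, and 6.47 and 10.3 at 250 nM. In Cov it lay at 0.117 and 16.7 FPKM in DMSO, 0.0897 and 0.101 at 50 nM, and 0.0965 and 0.1 at 250 nM. Both Ku libraries at 250 nM and Cov DMSO replicate 2 thus stood far above the other 9 libraries, and the DMSO replicates of Cov were unlike each other.

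The values listed under H3F3AP4, by contrast, were among the highest of the tables. All 337 of its windows also lie in the spliced H3F3A transcript, so these values cannot be assigned to H3F3AP4 alone. Its level in Ku was 1211 and 1167 FPKM in DMSO, 1194 and 1087 at 50 nM, and 865 and 781 at 250 nM, where DMSO and 50 nM overlapped and 250 nM lay below both. Its level in Cov was 717 and 825 FPKM in DMSO, 595 and 651 at 50 nM, and 419 and 406 at 250 nM, in 3 groups without overlap. The 250 nM libraries were lower than DMSO in Cov, with a log2 fold change of -0.90 (adjusted p 8.27e-05, limma with Benjamini-Hochberg), and the Ku value of -0.53 was not called (adjusted p 0.00117, limma with Benjamini-Hochberg). With the replicate number as a block, that Ku value was called. These directions hold on the spike-in scale only, since both other scalings gave H3F3AP4 positive values at both doses in each line. The values at 50 nM, -0.06 in Ku and -0.30 in Cov, were not called, and the Ku value became 0.01 without Ku 50 nM replicate 2.

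H3F3B, with far fewer shared windows, gave the H3.3 level that could be followed. In Ku it measured 172 and 155 FPKM in DMSO, 115 and 114 at 50 nM, and 75.1 and 67.2 at 250 nM. In Cov it measured 337 and 391 FPKM in DMSO, 179 and 195 at 50 nM, and 116 and 115 at 250 nM. Both lines showed DMSO highest, 50 nM between and 250 nM lowest, with no overlap between groups. After 250 nM its log2 fold change was -1.19 in Ku (95% confidence interval -1.39 to -0.99, adjusted p 3.1e-05) and -1.64 in Cov (-1.88 to -1.41, adjusted p 3.36e-06), by limma with Benjamini-Hochberg. These lay at the 46.2 and 33.2 percentiles of active genes. At 50 nM the Cov value of -0.95 was called (adjusted p 9.64e-05) and the Ku value of -0.51 was not (adjusted p 0.00332, limma with Benjamini-Hochberg).

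Ratios between genes of 1 library do not change with the scaling of that library. H3F3AP4 is taken here as listed, and the part of H3F3A reads in its level was not tested. The ratio of H3F3AP4 to H3F3B in Ku was 7.05 and 7.52 in DMSO, 10.4 and 9.56 at 50 nM, and 11.5 and 11.6 at 250 nM, and in Cov it was 2.13 and 2.11, then 3.33 and 3.33, then 3.60 and 3.54. It was higher with each dose in both lines, with no overlap. H3F3C stayed closer to H3F3B, at a ratio between 0.324 and 0.366 in the 6 Cov libraries, where the groups overlapped. In Ku that ratio was 0.355 and 0.328 in DMSO, 0.308 and 0.348 at 50 nM, and 0.290 and 0.288 at 250 nM, where only the 250 nM libraries lay below all others.

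**Figure D2:**
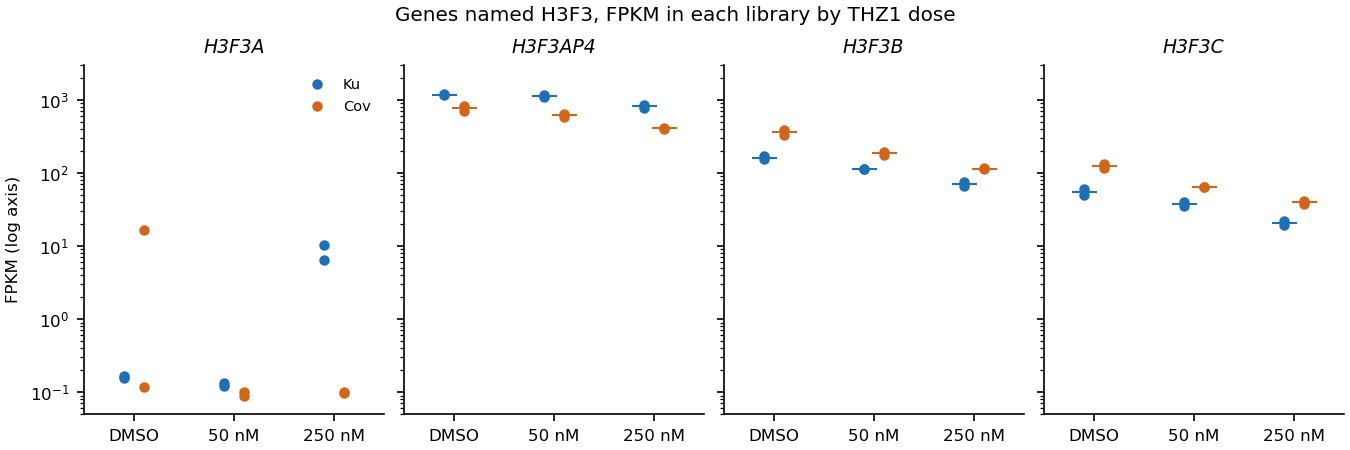
FPKM on a log axis of H3F3A, H3F3AP4, H3F3B and H3F3C in each library (points) at DMSO, 50 nM and 250 nM THZ1, with a dash at the group mean except for H3F3A. H3F3AP4 lay between 406 and 1211 FPKM in every library, H3F3B between 67.2 and 391, and H3F3A at or under 0.164 in 9 of 12 libraries.

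H2A.Z is an H2A variant placed next to the start sites of active genes, and it is encoded by H2AFZ (chr4:100869243-100871512, minus strand, 5 exons) and H2AFV (chr7:44866390-44887686, minus strand, 5 exons). Of the 75-base windows, 17 of 792 (2.15%) in H2AFZ and 130 of 2952 (4.4%) in H2AFV occurred elsewhere in the genome.

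With H3F3A taken as listed, H2AFZ was the most abundant member in every group of both lines, at rank 147 of the active genes in Ku DMSO and rank 172 in Cov DMSO. Its Ku levels were 797 and 751 FPKM in DMSO, 612 and 571 at 50 nM, and 326 and 297 at 250 nM. Its Cov levels were 768 and 886 FPKM in DMSO, 528 and 583 at 50 nM, and 352 and 352 at 250 nM. No group overlapped another in either line, and the lowest libraries were those at 250 nM. Against DMSO, 250 nM gave a log2 fold change of -1.31 in Ku (95% confidence interval -1.50 to -1.12, adjusted p 1.99e-05) and -1.23 in Cov (-1.47 to -0.98, adjusted p 1.59e-05), by limma with Benjamini-Hochberg. At 50 nM neither the -0.39 of Ku nor the -0.57 of Cov was called, with adjusted p 0.00733 and 0.00129 by limma with Benjamini-Hochberg, and the Cov value became -0.67 and was called without Cov DMSO replicate 1.

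H2AFV, the lesser source of H2A.Z, measured 132 and 118 FPKM in Ku DMSO, 114 and 110 at 50 nM, and 71.7 and 67.7 at 250 nM. It measured 247 and 293 FPKM in Cov DMSO, 175 and 201 at 50 nM, and 140 and 134 at 250 nM. The groups again stood in order of dose without overlap, though DMSO and 50 nM lay close in Ku. At 250 nM it was lower by limma with Benjamini-Hochberg in Ku (log2 fold change -0.83, adjusted p 8.8e-05) and in Cov (-0.97, adjusted p 9.15e-05), and at 50 nM it was called in neither. Under both other scalings the call at 250 nM was the opposite, with H2AFV higher in each line. The 250 nM changes lay at the 65.1 and 69.1 percentiles of active genes, against 40.4 and 54.4 for H2AFZ.

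The H2A.Z pair therefore did not keep a constant proportion. The ratio of H2AFZ to H2AFV in Ku was 6.04 and 6.36 in DMSO, 5.39 and 5.20 at 50 nM, and 4.55 and 4.39 at 250 nM. In Cov it was 3.11 and 3.03 in DMSO, 3.02 and 2.91 at 50 nM, and 2.51 and 2.62 at 250 nM. In both lines each dose lay below the one before it with no overlap, by a narrow margin between DMSO and 50 nM in Cov.

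H2A.X carries the phosphorylation site that marks chromatin around DNA double-strand breaks, and its gene H2AFX (chr11:118964584-118966175, minus strand) has 1 exon and 0 of 1518 windows shared with other places. H2AFX measured 142 and 153 FPKM in Ku DMSO, 60.2 and 64.2 at 50 nM, and 18.6 and 18.8 at 250 nM. Cov libraries held 103 and 109 FPKM in DMSO, 49.7 and 48.1 at 50 nM, and 23.8 and 32.4 at 250 nM. The groups were far apart in Ku, where the 250 nM mean was 12.6% of the DMSO mean, and apart in Cov too, where it was 26.5% and the 250 nM libraries were the more spread. H2AFX had the most negative log2 fold change of the tested members at 250 nM in both lines, -2.92 in Ku (95% confidence interval -3.08 to -2.75, adjusted p 5.42e-06) and -1.90 in Cov (-2.23 to -1.57, adjusted p 8.12e-06), by limma with Benjamini-Hochberg. In Ku this lay at the 4.15 percentile of active genes and in Cov at the 23.9 percentile.

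At 50 nM H2AFX had the most negative value of the tested members and was called in both lines, at -1.23 in Ku (adjusted p 0.000224) and -1.10 in Cov (adjusted p 0.000226), by limma with Benjamini-Hochberg. The Ku call was lost without any 1 of the 6 Ku libraries, with values from -1.29 to -1.18 and adjusted p from 0.00116 to 0.0024 by limma with Benjamini-Hochberg. The Cov call was lost without Cov DMSO replicate 1 (-1.14) and without Cov DMSO replicate 2 (-1.06). As a ratio to H2AFZ, H2AFX stood at 0.179 and 0.204 in Ku DMSO, 0.0983 and 0.113 at 50 nM, and 0.0569 and 0.0634 at 250 nM. In Cov the ratio was 0.134 and 0.123 in DMSO, 0.0942 and 0.0825 at 50 nM, and 0.0675 and 0.0920 at 250 nM. The Ku groups did not overlap, while in Cov the DMSO libraries lay above all treated ones and the doses overlapped.

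MacroH2A carries a large globular domain joined to an H2A-like part and is enriched on silent chromatin. Its main gene H2AFY (chr5:134670071-134735604, minus strand) has 9 exons and 0 of 1843 windows shared with other places. H2AFY measured 285 and 261 FPKM in Ku DMSO, 250 and 240 at 50 nM, and 184 and 174 at 250 nM. Cov levels were 160 and 180 FPKM in DMSO, 98.6 and 109 at 50 nM, and 88.4 and 87.5 at 250 nM. Groups did not overlap, and the gap from 50 nM to 250 nM was wider than that from DMSO to 50 nM in Ku and narrower in Cov, a difference between lines that was not tested. Against DMSO, 250 nM gave a log2 fold change of -0.61 in Ku (95% confidence interval -0.78 to -0.44, adjusted p 0.00025), the least negative of the 6 tested there, and -0.94 in Cov (-1.16 to -0.72, adjusted p 3.88e-05), by limma with Benjamini-Hochberg. The Ku call was lost without Ku DMSO replicate 1 (-0.54), without Ku 250 nM replicate 1 (-0.65) and without Ku 250 nM replicate 2 (-0.56). With every library, the values of -0.61 and -0.94 lay at the 77.5 and 70.4 percentiles of active genes, and H2AFY was called higher at 250 nM in both lines under both other scalings.

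At 50 nM H2AFY was called in Cov, at -0.71 (adjusted p 0.000276, limma with Benjamini-Hochberg), but not without Cov DMSO replicate 2 (-0.62) or without Cov 50 nM replicate 1 (-0.64). The Ku value of -0.15 was not called, with a 95% confidence interval from -0.32 to 0.02. Relative to H2AFZ, H2AFY stood at 0.358 and 0.347 in Ku DMSO, 0.408 and 0.420 at 50 nM, and 0.564 and 0.585 at 250 nM. The Cov ratio was 0.208 and 0.204 in DMSO, 0.187 and 0.187 at 50 nM, and 0.251 and 0.249 at 250 nM. It was highest at 250 nM in both lines without overlap, and at 50 nM it lay above DMSO in Ku and below DMSO in Cov.

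**Figure D3:**
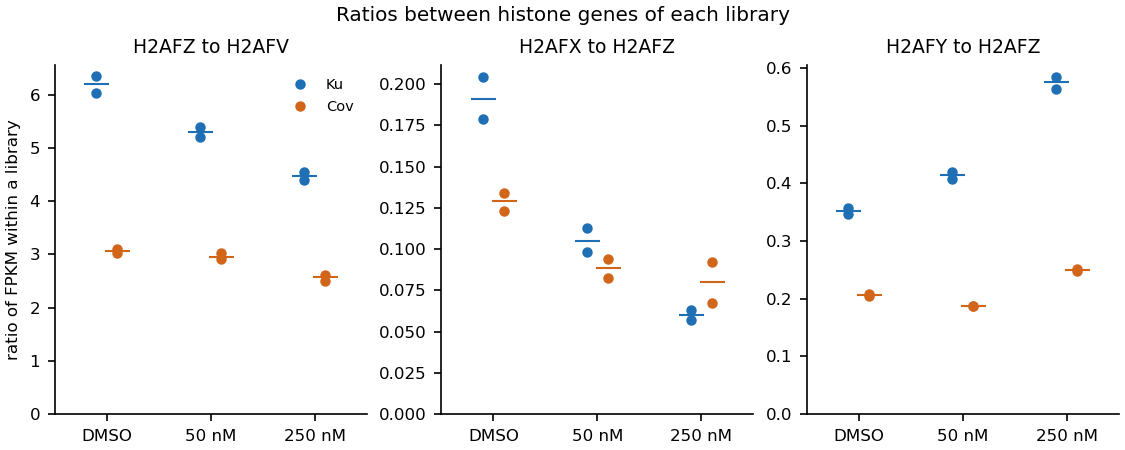
Ratios of FPKM within a library (points, with a dash at the group mean) for H2AFZ to H2AFV, H2AFX to H2AFZ and H2AFY to H2AFZ at DMSO, 50 nM and 250 nM THZ1 in Ku and Cov. The ratio of H2AFZ to H2AFV went from 6.04 and 6.36 in Ku DMSO to 4.55 and 4.39 at 250 nM, and that of H2AFY to H2AFZ from 0.358 and 0.347 to 0.564 and 0.585.

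H2A.J is an H2A variant known from senescent human cells. Its gene is H2AFJ (chr12:14927339-14930936, plus strand), with 0 of 546 windows shared with other places. It was low in Ku, within 1.5 times the shared low value in 2 of 6 libraries, at 0.260 and 0.205 FPKM in DMSO, 0.185 and 0.144 at 50 nM, and 0.106 and 0.143 at 250 nM. In Cov it measured 6.63 and 8.10 FPKM in DMSO, 4.53 and 4.73 at 50 nM, and 3.83 and 4.57 at 250 nM. The Cov DMSO libraries lay above all treated ones, and the doses overlapped. Its Cov log2 fold changes, -0.56 at 50 nM and -0.68 at 250 nM, were not called (adjusted p 0.00392 and 0.00133, limma with Benjamini-Hochberg), and the value at 250 nM, at the 83.4 percentile of active genes, was called when either Cov 50 nM library was left out.

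H1FX (chr3:129033614-129035129, minus strand, 1 exon) encodes H1.10, a linker histone distant in sequence from the others. It measured 79.3 and 77.3 FPKM in Ku DMSO, 41.8 and 40.5 at 50 nM, and 26.1 and 23.7 at 250 nM. In Cov it measured 208 and 224 FPKM in DMSO, 146 and 133 at 50 nM, and 120 and 143 at 250 nM. The Ku groups were separate, whereas in Cov the 50 nM and 250 nM libraries overlapped below DMSO. At 250 nM H1FX was lower in Ku (log2 fold change -1.62, adjusted p 1.04e-05) and in Cov (-0.72, adjusted p 0.000444) by limma with Benjamini-Hochberg, at the 28 and 82 percentiles. The Cov call was lost without Cov DMSO replicate 1 (-0.77), without Cov DMSO replicate 2 (-0.66) and without Cov 250 nM replicate 1 (-0.59), with the replicate number as a block (adjusted p 0.00195, limma with Benjamini-Hochberg) and after subtraction of the shared low value, and it became a call of higher at an equal median. At 50 nM the Ku value of -0.91 was called (adjusted p 0.000422, limma with Benjamini-Hochberg), with values from -0.94 to -0.89 and no call when any 1 of the 6 Ku libraries was left out. At the lower dose the Cov value of -0.63 was not called (adjusted p 0.00104, limma with Benjamini-Hochberg), and it was called when either Cov 250 nM library was left out.

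**Figure D4:**
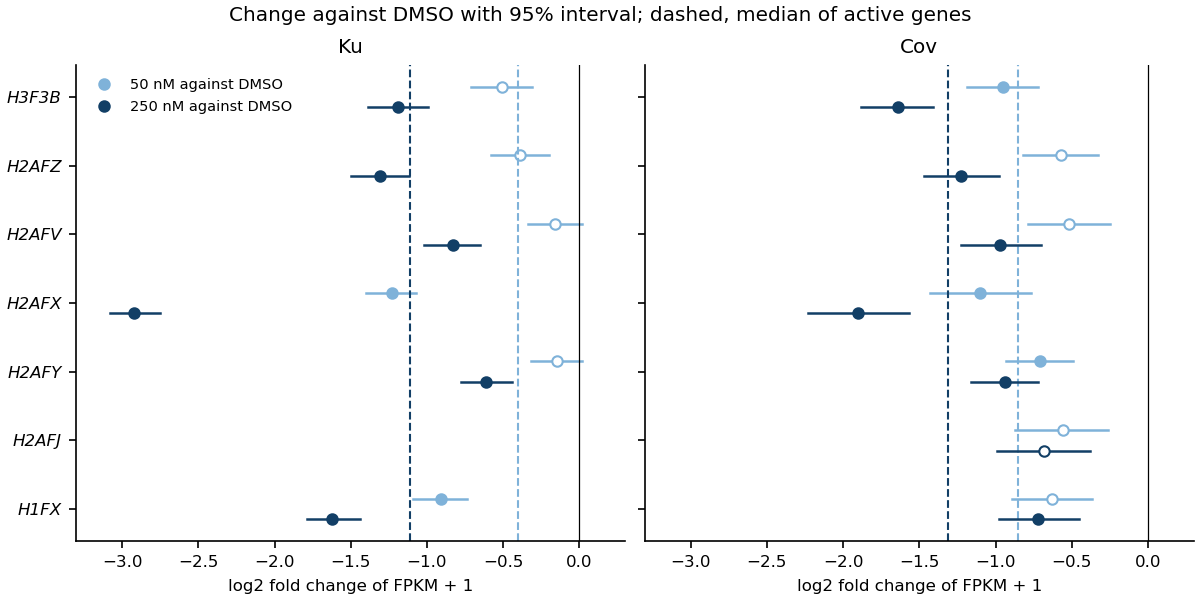
Log2 fold change of FPKM + 1 against DMSO (points, filled where called, with 95% confidence intervals) for the tested members at 50 nM and 250 nM THZ1 in Ku and Cov, with a dashed line at the median of active genes. At 250 nM on the spike-in scale the values ran from -2.92 (H2AFX) to -0.61 (H2AFY) in Ku and from -1.90 (H2AFX) to -0.68 (H2AFJ) in Cov, and scaling to an equal median reversed the sign of 5 of the 6 in Ku and of all 7 in Cov.

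The order of levels, per length of transcript, differed between DMSO and 250 nM. In Ku DMSO the means stood as H2AFZ (774 ± 32.9 FPKM, SD, n = 2), H2AFY (273 ± 17.6), H3F3B (163 ± 11.7), H2AFX (148 ± 7.68), H2AFV (125 ± 9.99) and H1FX (78.3 ± 1.46), with no overlap. In Ku at 250 nM they stood as H2AFZ (312 ± 20.7), H2AFY (179 ± 7.34), H3F3B (71.2 ± 5.58), H2AFV (69.7 ± 2.86), H1FX (24.9 ± 1.72) and H2AFX (18.7 ± 0.183), where H3F3B and H2AFV overlapped. H2AFX thus went from rank 4 to rank 6 among these genes.

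In Cov DMSO the means stood as H2AFZ (827 ± 83.1 FPKM), H3F3B (364 ± 38.6), H2AFV (270 ± 32.1), H1FX (216 ± 11), H2AFY (170 ± 14.6), H2AFX (106 ± 4.49) and H2AFJ (7.36 ± 1.04), again with no overlap. In Cov at 250 nM they stood as H2AFZ (352 ± 0.112), H2AFV (137 ± 4.05), H1FX (132 ± 16.4), H3F3B (116 ± 1.07), H2AFY (88 ± 0.638), H2AFX (28.1 ± 6.08) and H2AFJ (4.20 ± 0.524), where H2AFV and H1FX overlapped. H3F3B moved from rank 2 to rank 4.

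Summed over the 7 members other than H3F3A, FPKM came to 1608 and 1515 in Ku DMSO, 1193 and 1139 at 50 nM, and 702.2 and 648.6 at 250 nM. In Cov the sum was 1830 and 2091 in DMSO, 1180 and 1273 at 50 nM, and 844.1 and 868.4 at 250 nM. H2AFZ made up 49.6% and 49.5% of the sum in Ku DMSO, 51.3% and 50.1% at 50 nM, and 46.5% and 45.8% at 250 nM. In Cov it made up 42% and 42.3% in DMSO, 44.7% and 45.8% at 50 nM, and 41.7% and 40.5% at 250 nM. The share of H2AFX went from 8.85% and 10.1% in Ku DMSO to 2.64% and 2.90% at 250 nM, and that of H2AFY from 17.7% and 17.2% to 26.2% and 26.8%. In Cov the H2AFX share was 5.62% and 5.22% in DMSO and 2.81% and 3.73% at 250 nM.

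RefSeq promoter sequences of build GRCh38.p14 were on hand for all 8 members, in 12 windows of 250 bases before a transcription start. Those of H3F3B (chr17:75779780-75780029, minus strand), H2AFZ (chr4:99950276-99950525, minus strand), H2AFX (chr11:119095466-119095715, minus strand) and H2AFV (chr7:44848088-44848337, minus strand) are shown because these genes have 1 window each and stood in order of dose without overlap in both lines, while differing in how far they moved. H2AFY, also in that order, has 2 windows, 1 with 2 CCAAT boxes and 1 with 1 GC box, which are not shown. The share of active genes in that order was not counted, so the order does not set these genes apart. The sequences run 5′ to 3′ toward the start, and capitals mark CCAAT or ATTGG (the CCAAT box on either strand), GGGCGG or CCGCCC (the GC box) and TATAAA or TTTATA (the TATA box), with no overlap among the marked motifs.
H3F3B: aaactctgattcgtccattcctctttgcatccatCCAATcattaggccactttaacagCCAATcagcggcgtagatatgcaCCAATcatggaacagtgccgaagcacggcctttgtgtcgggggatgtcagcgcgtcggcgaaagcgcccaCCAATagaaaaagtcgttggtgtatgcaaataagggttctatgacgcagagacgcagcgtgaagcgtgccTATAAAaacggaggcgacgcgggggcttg
H2AFZ: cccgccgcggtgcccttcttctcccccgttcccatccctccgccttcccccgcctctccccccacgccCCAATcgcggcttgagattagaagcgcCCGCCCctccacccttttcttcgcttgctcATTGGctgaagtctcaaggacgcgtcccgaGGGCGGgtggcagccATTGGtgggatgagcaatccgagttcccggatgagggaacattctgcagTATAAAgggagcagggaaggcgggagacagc
H2AFX: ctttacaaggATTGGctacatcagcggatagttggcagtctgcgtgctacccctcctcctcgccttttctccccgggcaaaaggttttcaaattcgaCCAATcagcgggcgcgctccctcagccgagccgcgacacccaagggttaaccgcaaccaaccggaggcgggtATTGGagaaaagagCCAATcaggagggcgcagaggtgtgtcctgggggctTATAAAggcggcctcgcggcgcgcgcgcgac
H2AFV: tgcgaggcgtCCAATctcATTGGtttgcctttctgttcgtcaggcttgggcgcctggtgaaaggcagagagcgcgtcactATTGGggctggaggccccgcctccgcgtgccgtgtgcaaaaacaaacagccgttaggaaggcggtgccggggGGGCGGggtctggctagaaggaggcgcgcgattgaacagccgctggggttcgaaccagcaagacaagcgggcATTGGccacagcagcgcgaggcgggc
H3F3B and H2AFX each held 4 CCAAT boxes and 1 TATA box with 0 GC boxes, H2AFZ held 3 CCAAT boxes, 2 GC boxes and 1 TATA box, and H2AFV held 4 CCAAT boxes, 1 GC box and 0 TATA boxes. The TATA box began 29 bases before the start in H3F3B and 31 bases before it in H2AFZ and H2AFX.

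Of all 35116 promoter windows of that length, 32% held CCAAT on either strand, 42.6% held GGGCGG, 10.7% held TATAAA and 6.34% held CACGTG (the E box, its own reverse complement). Among the 12 windows of the members, of which 4 belong to H3F3A and 2 to H2AFY, CCAAT was found in 9, GGGCGG in 7, TATAAA in 4 (H3F3B, H2AFZ, H2AFX and H1FX) and CACGTG in 0. H1FX also had its TATA box 31 bases before the start. GC content of the member windows ran from 50.4% to 83.2%, beside a median of 58% over all windows. A match of letters is a description and says nothing of factor binding.

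The active genes whose profiles lay nearest to a member were found by Euclidean distance over the 12 libraries, on log2(FPKM + 1) relative to the DMSO mean of each line. For H3F3B these were MRPS28 (distance 0.187), TUBA4B (0.194) and EIF2S2 (0.196), where the median distance over 14250 genes was 1.52. For H2AFZ they were RNF11 (0.259), CMTM4 (0.263) and POLE3 (0.280), with a median distance of 1.48.

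Genes that handle these histones were followed as lists, by counts and medians on the spike-in scale. At 250 nM, 68.6% of active genes were called lower in Ku and 84% in Cov, and at 50 nM 11.3% and 70.5%. Shares of active genes called at 250 nM under the other scalings are those given above for the members. H3.3 is deposited by the HIRA complex (HIRA, UBN1, UBN2, CABIN1, with ASF1A) and by DAXX with ATRX. At 250 nM, 6 of these 7 genes were lower in Ku and 7 in Cov, beside 68.6% and 84% of active genes, with a median log2 fold change of -2.04 in each line, and medians under the other scalings stayed negative (-0.28 and -0.75 in Ku, -0.21 and -0.58 in Cov at an equal median and under median-of-ratios scaling). The calls became 2 lower and 1 higher (ATRX) in Ku and 1 lower and 1 higher (CABIN1) in Cov at an equal median, and 3 lower and 0 higher in each line under median-of-ratios scaling. ASF1A was the lowest in both lines, with 36.1 and 30.6 FPKM in Ku DMSO and 4.09 and 3.87 at 250 nM (log2 fold change -2.78), and with 13.6 and 15.4 FPKM in Cov DMSO and 2.27 and 2.11 at 250 nM (-2.28). ATRX was the highest in Ku and not called (-0.79), and CABIN1 was the highest in Cov (-0.86). At 50 nM limma called 0 of 7 in Ku, where 5 were lower at an unadjusted p under 0.05 and the median was -0.50, and 6 of 7 in Cov, all but ATRX, with a median of -0.98 that became 0.17 at an equal median and -0.01 under median-of-ratios scaling, both with 0 genes lower.

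H2A.Z is exchanged into nucleosomes by the SRCAP and EP400 complexes and removed with the help of INO80 and ANP32E. At 250 nM, 12 of 12 genes of this list were lower in both lines on the spike-in scale, beside 68.6% of active genes in Ku and 84% in Cov, with medians of -1.26 in Ku and -1.52 in Cov, but the medians turned to 0.61 in Ku and 0.33 in Cov at an equal median, and to 0.13 and -0.08 under median-of-ratios scaling. Calls then numbered 2 lower and 4 higher in Ku and 1 lower and 5 higher in Cov at an equal median, and 3 lower and 3 higher in Ku and 2 lower and 1 higher in Cov under median-of-ratios scaling. SRCAP was the lowest, with 26.8 and 22.3 FPKM in Ku DMSO and 2.66 and 2.94 at 250 nM (log2 fold change -2.75), and with 26.8 and 30.3 FPKM in Cov DMSO and 3.22 and 3.68 at 250 nM (-2.73). It was also called lower under both other scalings in each line. ACTL6A was the highest in Ku (-0.65) and ZNHIT1 in Cov (-0.89). At 50 nM, 1 of 12 (VPS72) was lower in Ku and 11 of 12 in Cov, all but ANP32E, on the spike-in scale. Under both other scalings 0 were lower in Cov, and in Ku 0 at an equal median and 1 (VPS72) under median-of-ratios scaling.

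H2A.X is phosphorylated by ATM, ATR and PRKDC, is bound by MDC1, and carries a tyrosine mark set by BAZ1B. At 250 nM, 3 of these 5 genes were lower in Ku, where ATM (-0.73) and PRKDC (-0.58) were not called, and 5 of 5 in Cov, beside 68.6% and 84% of active genes, on the spike-in scale, with medians of -1.19 and -1.58 that became 0.67 and 0.37 at an equal median and 0.18 and -0.06 under median-of-ratios scaling. Called higher at an equal median were ATM, MDC1 and PRKDC in Ku and ATM and PRKDC in Cov, and under median-of-ratios scaling PRKDC in Ku, with 1 gene lower in each of these. BAZ1B was the lowest in both lines, with 52.3 and 45.8 FPKM in Ku DMSO and 6.53 and 6.74 at 250 nM (-2.71), and with 76.1 and 86.1 FPKM in Cov DMSO and 12.4 and 12.3 at 250 nM (-2.62). BAZ1B was that gene, lower under both other scalings in both lines, and ATM was the highest in Cov (-0.77). At 50 nM limma called 0 of 5 in Ku, where 4 were lower at an unadjusted p under 0.05, and 5 of 5 in Cov, of which both other scalings left 0.

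General histone chaperones escort H2A-H2B and H3-H4 of all kinds. At 250 nM, 8 of 10 were lower in Ku, where NAP1L1 (-0.58) and NPM1 (-0.60) were not called, and 10 of 10 in Cov, beside 68.6% and 84% of active genes, on the spike-in scale, with medians of -0.94 and -1.36 that became 1.02 and 0.68 at an equal median and 0.50 and 0.22 under median-of-ratios scaling. At an equal median 1 was lower and 7 higher in Ku and 1 lower and 8 higher in Cov, and under median-of-ratios scaling 2 lower and 2 higher in Ku and 1 lower and 1 higher in Cov. CHAF1A, a subunit of the chaperone that works at replication forks, was the lowest, with 26.4 and 24.9 FPKM in Ku DMSO and 1.98 and 2.79 at 250 nM (-2.99), and with 29.4 and 32.7 FPKM in Cov DMSO and 4.33 and 4.13 at 250 nM (-2.61). SSRP1 was the highest in Cov (-1.02). At 50 nM, 2 of 10 were lower in Ku and 8 of 10 in Cov, which became 0 in each line at an equal median and 1 in each under median-of-ratios scaling.

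Of 8 other variant histone genes, 4 were active (CENPA, H3F3C, H2AFY2 and H2AFB2). At 250 nM, 2 of the 4 were lower in Ku and 3 in Cov on the spike-in scale, beside 68.6% and 84% of active genes, with medians of -0.97 and -1.44 that became 0.04 and 0.58 at an equal median and -0.13 and 0.14 under median-of-ratios scaling. Without H2AFB2, which lay near the shared low value in most libraries, 2 of 3 were lower in Ku and 3 of 3 in Cov. On the spike-in scale the medians of these 3 genes were -1.4 and -1.61, against -1.11 and -1.31 over all active genes. At an equal median 0 were lower in either line and H2AFY2 was higher in Cov, and under median-of-ratios scaling 1 was lower (CENPA) in each line. CENPA, the H3 variant of centromeres, measured 22.2 and 23.5 FPKM in Ku DMSO, 8.07 and 4.65 at 50 nM, and 1.73 and 1.35 at 250 nM. In Cov it measured 85.8 and 104 FPKM in DMSO, 28 and 30.4 at 50 nM, and 15.7 and 17.1 at 250 nM. Its groups did not overlap, and 250 nM gave a log2 fold change of -3.24 in Ku and -2.46 in Cov, the lowest of the list in each. H2AFY2, the second macroH2A gene, lay at 0.823 and 0.676 FPKM in Ku DMSO and was not called there (-0.40), against 48.8 and 55.2 FPKM in Cov DMSO and 20.5 and 21.2 at 250 nM, where it was lower on the spike-in scale (-1.28). H2AFB2, the highest of the list in Cov, was not called in either line and lay near the shared low value except for 1.17 FPKM in Ku DMSO replicate 2 and 0.764 FPKM in Cov 250 nM replicate 1. At 50 nM limma called 0 of 4 in Ku, where 3 were lower at an unadjusted p under 0.05, and 3 of 4 in Cov, and under both other scalings 0 were lower in Cov.

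The replication-dependent histone genes are the natural contrast, although the libraries were made from polyadenylated RNA and most of these mRNAs lack a poly(A) tail. Of 72 such genes in the tables, 42 were active. At 250 nM, 10 of the 42 were lower, 1 higher and 31 not called in Ku, and by limma 9 lower, 0 higher (4 at an unadjusted p under 0.05) and 33 not called in Cov, beside 68.6% and 84% of active genes lower, with medians of -0.35 and -0.49 on the spike-in scale that became 0.93 and 1.10 at an equal median and 0.59 and 0.74 under median-of-ratios scaling. At an equal median 0 were lower and 11 higher in Ku and 0 lower and 16 higher in Cov, and under median-of-ratios scaling 1 lower and 6 higher in Ku and 0 lower and 6 higher in Cov. Of the 42, 9 in Ku and 6 in Cov lay near the shared low value in at least 1 library, and 1 in Ku and 2 in Cov in all 6, where no fall could show. Without those 9 and 6 the counts were 10 lower, 1 higher and 22 not called in Ku and 9 lower, 0 higher and 27 not called in Cov, with medians of -0.53 and -0.52. The gene called higher in Ku was HIST1H4C, at 0.702 and 0.592 FPKM in DMSO, 1.98 and 2.27 at 50 nM, and 3.52 and 3.32 at 250 nM (log2 fold change 1.42), and it was also higher there under both other scalings. HIST1H4C in Cov had the highest value, 1.66, but was not called and lay near the shared low value in 2 libraries, with 0.144 and 1.19 FPKM in DMSO, 3.32 and 0.107 at 50 nM, and 4.05 and 3.97 at 250 nM. The highest value in Ku was that of HIST1H2BG (1.73), which was not called on the spike-in scale but was called higher under both other scalings. The lowest values were those of HIST2H2BC in Ku (-1.85) and HIST2H4A in Cov (-1.45), a gene with an almost identical copy in HIST2H4B. At 50 nM, 5 of 42 were lower in Ku and 6 in Cov, and 0 in each line under both other scalings, with medians of -0.01 and -0.38 that became 0.34 and 0.56 at an equal median and 0.25 and 0.39 under median-of-ratios scaling, and limma called 0 higher, where 7 in Ku and 0 in Cov were higher at an unadjusted p under 0.05.

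Summed FPKM of the 72 replication-dependent genes was 499.1 and 451.2 in Ku DMSO, 483.5 and 453.8 at 50 nM, and 331 and 323.6 at 250 nM. In Cov it was 765.4 and 836.6 in DMSO, 510 and 554.8 at 50 nM, and 454.5 and 483.6 at 250 nM. The Ku sum overlapped between DMSO and 50 nM, while the Cov sum was already apart at 50 nM. HIST1H2BK was the most abundant of them in every library, at 159 and 142 FPKM in Ku DMSO and 125 and 121 at 250 nM. NPAT and the genes that process these mRNAs (SLBP, ZNF473, LSM10 and LSM11) were lower in 5 of 5 cases at 250 nM in each line, beside 68.6% of active genes in Ku and 84% in Cov, with medians of -2.38 in Ku and -2.09 in Cov, which stayed negative at an equal median (-0.55 and -0.54) and under median-of-ratios scaling (-0.97 and -0.99), though 2 of 5 in each line were called lower at an equal median, and 3 in Ku and 4 in Cov under median-of-ratios scaling. NPAT was the lowest in both lines, with 11.9 and 10.5 FPKM in Ku DMSO and 0.998 and 1.31 at 250 nM (-2.50), and with 11 and 12 FPKM in Cov DMSO and 1.12 and 0.959 at 250 nM (-2.62). The highest were LSM11 in Ku (-1.49) and LSM10 in Cov (-1.55). At 50 nM, 1 of 5 was lower in Ku and 5 of 5 in Cov, whereas at an equal median 0 were lower in each line, and under median-of-ratios scaling 1 in Ku and 0 in Cov.

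**Figure D5:**
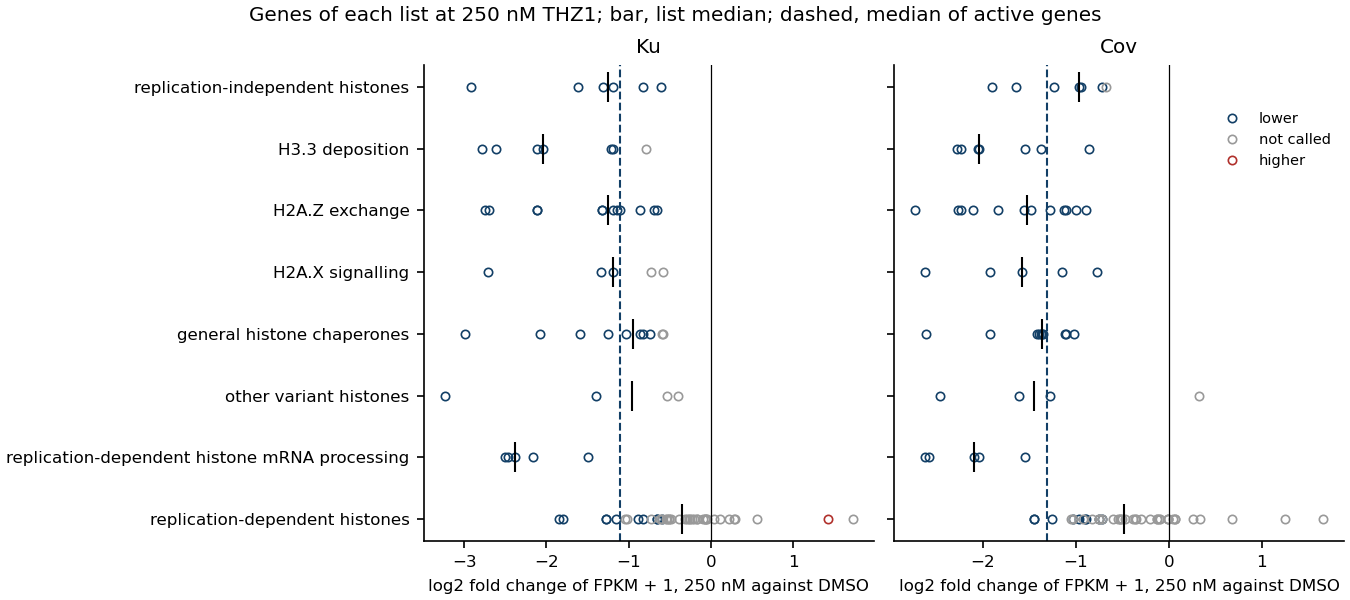
Log2 fold change of FPKM + 1 at 250 nM against DMSO for each active gene (points) of the gene lists in Ku and Cov, coloured by call, with a bar at the list median and a dashed line at the median of active genes. On the spike-in scale the medians ran from -2.38 (mRNA processing with NPAT) to -0.35 (replication-dependent histones) in Ku and from -2.09 to -0.49 in Cov, and at an equal median only those of H3.3 deposition and mRNA processing with NPAT stayed below 0.

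A value near the shared low level need not mean that a gene is silent. Of 81 genes used by every cell, 1 (RPL21) lay near it in Cov 50 nM replicate 2 and 0 did in the other 11 libraries. Genes of this kind were thus rarely near it. The values of H3F3A, and of H2AFJ in Ku, are given as listed, and whether these genes were silent was not tested.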

How the data were processed

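The authors selected polyadenylated RNA, sequenced 75-base single-end reads, aligned them to hg19 with HISAT, and deposited FPKM from cuffquant and cuffnorm (Cufflinks), normalized to spike-in RNAs, with the lines in separate tables. The values are not counts, so the depth is unknown and alignment and normalization were taken as deposited. Genes with FPKM above 1 in at least 1 of 12 libraries were analysed as log2(FPKM + 1), without spike-in rows. The 6 libraries of a line were modelled by limma 3.58.1 (R 4.3.3; lmFit, contrasts.fit, eBayes with a mean-variance trend; 3 groups of 2, residual degrees of freedom 3, two-sided) and adjusted by Benjamini-Hochberg over all active genes. The fit was tested on simulated data. A further gene and a coding sequence are not reported here. The members and lists were chosen with earlier results of these data known. From each list the text names the lowest and highest gene at 250 nM and those not called, which for the replication-dependent genes are given as a count. A threshold of 1.5 times the shared low value was chosen after the values were seen. Positions come from GENCODE lifted to GRCh37, with exon counts of the main transcript, and promoters from RefSeq. Alternatives were a pseudocount of 0.1, no minimum FPKM, a minimum of 10, an equal median, median-of-ratios scaling, a replicate block, an adjusted p under 0.05, subtraction of the shared low value, and each library left out. The lists were recomputed under both scalings, and the replication-dependent genes and the other variant histone genes also without those near the shared low value. Reading used the data.table package (1.17.8) and pandas 2.3.3, windows were counted with numba 0.67.0 and numpy 2.4.6, and matplotlib 3.10.9 made the plots, under Python 3.11.15.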

Additional observations from a re-analysis of the deposited data

Results flagged for a closer look

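H3F3A at 250 nM stood above DMSO in Ku and below it in Cov, where the difference rests on 1 DMSO library. In Ku both treated libraries, at 6.47 and 10.3 FPKM, lay above both DMSO libraries, at 0.164 and 0.155. In Cov both treated libraries, at 0.0965 and 0.1 FPKM, lay below both DMSO libraries, at 0.117 and 16.7, but the 0.117 and both treated values were near the shared low value (1.15, 1.02 and 0.956 times it). The difference between the lines was not tested. Of the 75-base windows of the transcript, 91.3% also occur within 1000 bases of H3F3AP4, and the part of shared reads in these levels was not tested.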

How the results depend on the processing

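Scaling decided the direction. With each library at an equal median FPKM, 27 of 30 log2 fold changes against DMSO (6 members in Ku, 7 in Cov, and H3F3AP4) changed sign. At 50 nM in Ku these became 0.19 (H3F3B), 0.32 (H2AFZ), 0.54 (H2AFV), 0.55 (H2AFY) and 0.65 (H3F3AP4), and at 250 nM in Ku 0.78 (H3F3B), 0.67 (H2AFZ), 1.13 (H2AFV), 1.37 (H2AFY), 0.32 (H1FX) and 1.45 (H3F3AP4). At 50 nM in Cov they became 0.27 (H3F3B), 0.65 (H2AFZ), 0.11 (H2AFX), 0.70 (H2AFV), 0.51 (H2AFY), 0.45 (H2AFJ), 0.58 (H1FX) and 0.92 (H3F3AP4), and at 250 nM in Cov 0.42 (H3F3B), 0.84 (H2AFZ), 0.14 (H2AFX), 1.10 (H2AFV), 1.12 (H2AFY), 1.06 (H2AFJ), 1.35 (H1FX) and 1.17 (H3F3AP4). Median-of-ratios scaling changed the sign of 23. At 50 nM in Ku these became 0.05 (H3F3B), 0.17 (H2AFZ), 0.39 (H2AFV), 0.40 (H2AFY) and 0.50 (H3F3AP4), and at 250 nM in Ku 0.26 (H3F3B), 0.15 (H2AFZ), 0.61 (H2AFV), 0.85 (H2AFY) and 0.93 (H3F3AP4). At 50 nM in Cov they became 0.07 (H3F3B), 0.46 (H2AFZ), 0.51 (H2AFV), 0.31 (H2AFY), 0.30 (H2AFJ), 0.39 (H1FX) and 0.72 (H3F3AP4), and at 250 nM in Cov 0.39 (H2AFZ), 0.64 (H2AFV), 0.66 (H2AFY), 0.68 (H2AFJ), 0.89 (H1FX) and 0.71 (H3F3AP4). By construction both scalings remove a shift common to all genes, which the spike-in scale keeps. Equal-median scaling went further, leaving the median over active genes at 250 nM at 0.29 in Ku and 0.31 in Cov. A positive value at an equal median is thus not by itself a rise above other genes.

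The count of members called lower became 0 at an equal median in each comparison with DMSO and in the Ku step from 50 nM to 250 nM. Under median-of-ratios scaling it became 0 at 50 nM and 1 at 250 nM in Ku, 0 at 50 nM and 0 at 250 nM in Cov, and 0 for the Ku step. Without a minimum FPKM it became 0 for Ku 50 nM, 1 for the Ku step and 5 for Cov 250 nM. At an adjusted p under 0.05 it became 3 for Ku 50 nM (beside 40.2% of active genes), 7 for Cov 50 nM (82%), 7 for Cov 250 nM (88.3%) and 3 for the Cov step from 50 nM to 250 nM (41.5%), which was 1 with a pseudocount of 0.1 and 1 with a minimum FPKM of 10. That pseudocount and that minimum each also made Cov 50 nM 4, and the replicate block made Cov 250 nM 5. The cause of these changes was not tested.

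Leaving out each library in turn gave a count of 0 each time for Ku 50 nM, and counts from 5 to 6 for Ku 250 nM, from 1 to 5 for the Ku step, from 5 to 7 for Cov 250 nM, from 1 to 4 for Cov 50 nM and from 0 to 1 for the Cov step. A group with 1 library left was assumed to vary like the others. The share of active genes called was not counted in these runs, nor with another pseudocount, another minimum or the replicate block. Whether the changes in count are particular to the members was not tested. Of 180 log2 fold changes with a library left out, 152 kept direction and call, 22 lost and 5 gained a call, and 1 changed sign, H3F3AP4 at 50 nM in Ku (from -0.13 without Ku 50 nM replicate 1 to 0.01 without replicate 2).

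With the replicate number as a block, 28 of 30 log2 fold changes kept direction and call, 1 gained a call (H3F3AP4, Ku 250 nM) and 1 lost it (H1FX, Cov 250 nM, adjusted p 0.00195 by limma with Benjamini-Hochberg, where the main value was 0.000444 and the 95% interval -0.98 to -0.45). Deviations of libraries with the same number were uncorrelated across the 14251 active genes of the block check, with Pearson correlations from -0.00871 to 0.000345 in Ku and from -0.0703 to 0.0282 in Cov, so the numbers were not used to pair samples. A pseudocount of 0.1 kept 28 and gained 2, a minimum of 10 kept 26 and gained 2, no minimum kept 27 and lost 3, and an adjusted p under 0.05 kept 23 and gained 7. Subtracting the shared low value, chosen after seeing the data, kept 29 and lost 1 (H1FX, Cov 250 nM). Leaving out replication-dependent genes near the shared low value, also chosen after seeing the data, kept the counts called lower at 250 nM at 10 in Ku and 9 in Cov. Depth is unknown, so the precision of low levels cannot be given.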
